A study of Felis catus with 2 samples.

Results

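The cone photoreceptor genes examined here are ARR3, GNAT2, PDE6C, PDE6H, OPN1SW, CNGB3 and GNGT2, all 7 of which were found by exact gene name among the 32065 loci of the deposited table, each on 1 row. Polyadenylated RNA was sequenced from 1 domestic cat with primary congenital glaucoma (PCG) and from 1 unrelated normal cat, both 2 months old. The dissected tissue, labelled iridiocorneal angle, also held ciliary body, sclera and trabecular meshwork, and neural retina is not named among its parts. Affected cats of this colony carry a 4-bp insertion in exon 8 of LTBP2, although the labels give no genotype for the sequenced animal. With 1 library per condition no difference between conditions can be tested, so each value describes these 2 libraries, and in bulk tissue fewer cells of a type cannot be told apart from less RNA per cell.

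Cones are the photoreceptors of daylight and colour vision. In a cone, light activates an opsin, the opsin activates the G protein transducin, transducin releases the inhibitory subunit from phosphodiesterase 6 (PDE6), and the resulting loss of cyclic GMP closes a cation channel in the outer segment. Arrestin then binds the activated opsin and ends the response. Rods use a parallel set of proteins, most of them encoded by sister genes, and they greatly outnumber cones in the cat retina.

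The 7 genes did not shift together between the libraries. ARR3, PDE6H and PDE6C were several-fold higher in the affected library, OPN1SW was several-fold lower, GNGT2 was moderately lower, and GNAT2 and CNGB3 were at nearly the same low level in both. Levels are given as FPKM, which count sequenced fragments relative to exon length and to library size. Differences are given as a plain fold of the FPKM and as a log2 ratio, log2 of (affected + 1) over (normal + 1), which understates the change of low genes. Low values at unnamed loci come in steps, and from these steps a fragment on 1 kilobase of effective transcript length was worth 0.0141 FPKM (normal) and 0.0148 FPKM (affected). The 95% intervals given with the folds are exact binomial intervals for a transcript with 1 kilobase of effective length. They cover counting error only and do not include the variation between cats.

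**Figure D1:**
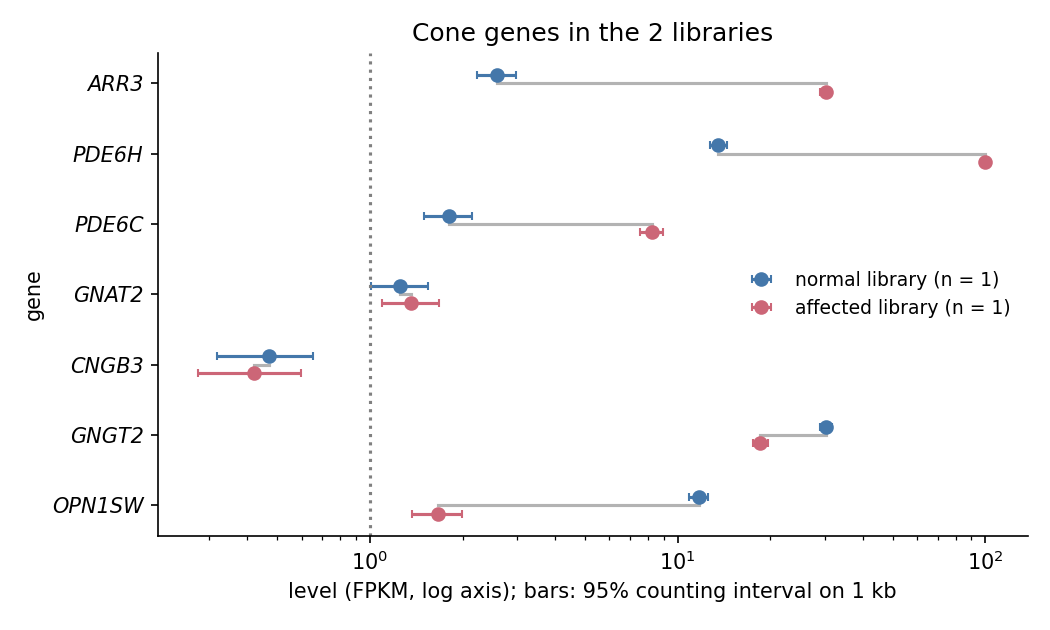
Level of the 7 cone genes in FPKM on a log axis, in the normal (blue) and the affected library (red), 1 library each, with the exact 95% Poisson counting interval for 1 kilobase of effective length. The dotted line marks 1 FPKM. ARR3, PDE6H and PDE6C lie to the right in the affected library, OPN1SW and GNGT2 lie to the left, and the intervals of GNAT2 and of CNGB3 overlap between the libraries.

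OPN1SW encodes the opsin of short-wavelength cones. Its locus lies on chromosome A2 (felCat5, as for all positions here) from 145228679 to 145231879 and spans 3201 bases. It was listed at 11.7 FPKM in the normal cat against 1.67 FPKM in the affected cat, so the normal value was 7.02 times the affected one (5.77 to 8.65). The log2 ratio was −2.25, and it was lower at 205 of the 16676 compared loci, those that reached 1 FPKM in 1 library or both. OPN1SW was the member with the lowest log2 ratio. The opsin of long-wavelength cones, OPN1LW, which is not one of the 7 genes, differed in the opposite direction, with 2.15 FPKM (normal) and 16.7 FPKM (affected). Within the normal library OPN1SW stood at 5.42 times the level of OPN1LW, whereas within the affected library OPN1LW stood at 10.02 times the level of OPN1SW. The ratio of the opsins thus differed 54.4-fold between the libraries, a comparison that does not depend on how the libraries were scaled. OPN1MW is not among the gene names listed and was not analysed here.

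The transducin of cones contains the alpha subunit GNAT2 and the gamma subunit GNGT2. GNAT2, on chromosome C1 from 92270750 to 92285033, was listed at 1.25 FPKM in the normal cat against 1.36 FPKM in the affected cat. Its fold of 1.09 (0.805 to 1.47) was within counting error, so a difference was not detectable at this depth, and the log2 ratio was 0.071. GNAT2 was thus low in both libraries, above only 10.6% of the compared loci in the normal cat and 13.5% in the affected cat.

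GNGT2 had the highest level of the 7 genes in the normal library. It lies on chromosome E1 from 38256383 to 38259494, and was listed at 30.3 FPKM (normal) and 18.5 FPKM (affected). The normal value was 1.63 times the affected one (1.52 to 1.75), and the log2 ratio was −0.68. This gene is also transcribed in leukocytes, so leukocyte markers are given beside it. Of 12 such markers 11 were listed, none at 0, and their FPKM summed to 147.2 in the normal against 142.7 in the affected library. All 11 were within 2-fold, 7 of them lower in the affected library, and their median log2 ratio was −0.32. The most abundant was TYROBP, a signalling adaptor of myeloid cells, with 59.2 and 66.7 FPKM in the normal and the affected library. LAPTM5, a lysosomal protein of blood cells, had 26.3 and 19.2 FPKM. The part of leukocytes in the level of GNGT2 was not tested.

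The effector enzyme of cones is a PDE6 with the catalytic subunit PDE6C and the inhibitory subunit PDE6H. PDE6C, on chromosome D2 from 55846779 to 55895047, was listed at 1.80 FPKM in the normal cat against 8.24 FPKM in the affected cat, a fold of 4.57 (3.77 to 5.59). Its log2 ratio of 1.72 was exceeded at 425 compared loci. PDE6H, on chromosome B4 from 50825839 to 50834162, was listed at 13.5 FPKM (normal) and 99.5 FPKM (affected), a fold of 7.34 (6.87 to 7.87). Both subunits were therefore higher in the affected library. PDE6H stood at 7.51 times the level of PDE6C in the normal cat and 12.1 times in the affected cat. The log2 ratio of PDE6H was 2.79, and 100 loci had a higher one. A second locus, ENSFCAG00000022589, is listed with the same span as PDE6H and with 0 FPKM in both libraries.

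CNGB3 encodes the beta subunit of the cone cyclic nucleotide-gated channel. It lies on chromosome F2 from 33880872 to 34026151, the widest span of the 7 genes with 145280 bases. It was listed at 0.471 FPKM in the normal cat against 0.421 FPKM in the affected cat, about 33 and 28 fragments per kilobase. It was the only member under 1 FPKM in both libraries and is therefore left out of the counts against all loci. Its fold of 0.894 (0.521 to 1.53) left a difference in either direction undetectable at this depth, and the log2 ratio was −0.050. The alpha subunit of the same channel, CNGA3, was listed at 1.39 FPKM (normal) and 0.411 FPKM (affected).

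ARR3 encodes cone arrestin and had the highest log2 ratio of the 7 genes. Its locus lies on chromosome X from 58224447 to 58237433, a span of 12987 bases. It was listed at 2.58 FPKM in the normal cat against 30.2 FPKM in the affected cat, a fold of 11.7 (10.05 to 13.7). The log2 ratio was 3.12, and 67 compared loci had a higher one.

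The order of the genes by level also differed between the libraries. In the normal library GNGT2 was followed by PDE6H, OPN1SW, ARR3, PDE6C, GNAT2 and CNGB3. In the affected library the order was PDE6H, ARR3, GNGT2, PDE6C, OPN1SW, GNAT2 and CNGB3. Neighbours in these orders had separate counting intervals for 1 kilobase, except PDE6C (1.501 to 2.14 FPKM) and GNAT2 (1.005 to 1.54 FPKM) in the normal library, and OPN1SW (1.37 to 1.997 FPKM) and GNAT2 (1.10 to 1.67 FPKM) in the affected library. The FPKM of all 7 summed to 61.6 in the normal against 159.9 in the affected library. PDE6H made up 22.0% of that sum in the normal cat and 62.2% in the affected cat, and GNGT2 made up 49.2% and 11.6%. Without PDE6H the sums were 48.1 and 60.5 FPKM, so most of the difference in the sum rested on this single gene.

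Of the 6 members with at least 1 FPKM, each of which passed that minimum in both libraries, on the scale of the log2 ratio used for all such counts, 3 were higher in the affected library by 2-fold or more, 1 was at least 2-fold lower and 2 were within 2-fold. Among all 16676 compared loci, 8.14% were at least 2-fold higher and 8.75% at least 2-fold lower. The median log2 ratio of the 6 members was 0.90, against −0.0047 for all compared loci, and the median over all 7 members was 0.071. These medians summarise a set whose log2 ratios ran from −2.25 to 3.12.

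**Figure D2:**
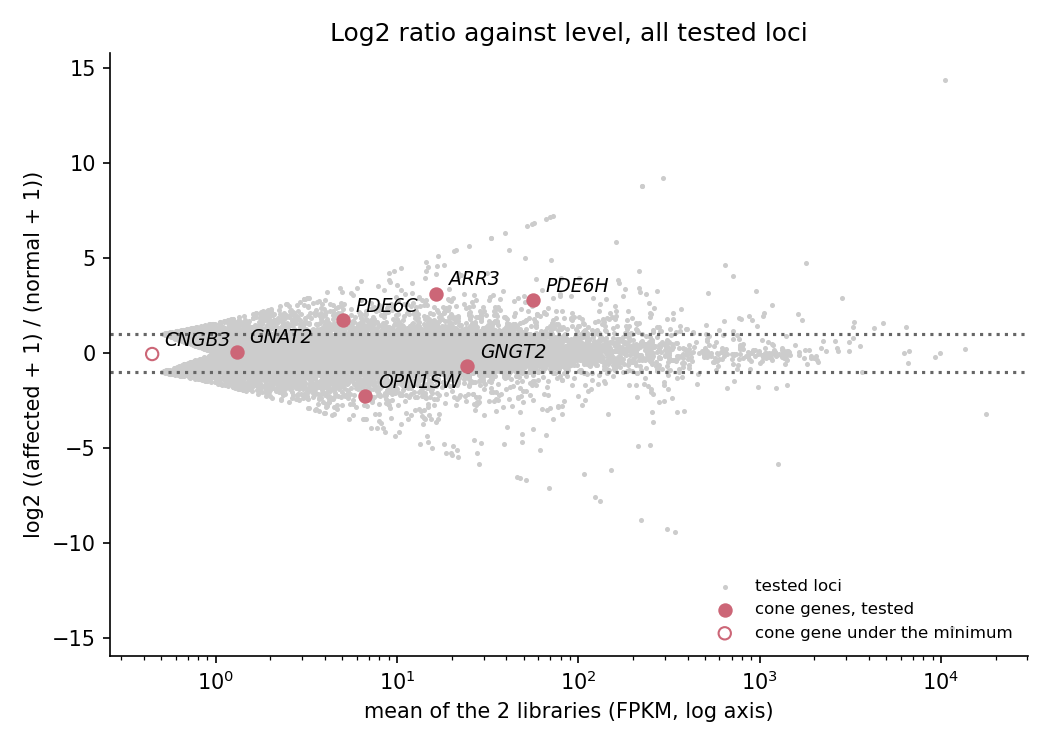
Log2 ratio (affected over normal, 1 FPKM added) against the mean FPKM of the 2 libraries on a log axis, for the 16676 compared loci (grey) and the cone genes (red; CNGB3, under that minimum, is open). Dotted lines mark a 2-fold difference. ARR3, PDE6H and PDE6C lie above the upper line, OPN1SW lies below the lower one, and the other 3 lie between them.

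Further genes of cone phototransduction and cone identity were also compared between the libraries. Of 9 such genes 7 were listed, and all 7 reached 1 FPKM in at least 1 library. With 1 FPKM added, OPN1LW was at least 2-fold higher and none was at least 2-fold lower. By the plain fold of the FPKM, without the added 1, 3 were at least 2-fold higher and 1 was at least 2-fold lower. These were OPN1LW at 7.74-fold (6.55 to 9.25), GUCA1C, a guanylate cyclase activator of cones, at 2.87-fold (1.96 to 4.37), SLC24A2, the cation exchanger of cones, at 2.49-fold (1.63 to 4.07), and CNGA3, whose normal value was 3.39 times the affected one (2.19 to 5.30). GUCA1C and SLC24A2 reached 1 FPKM in the affected library only and CNGA3 in the normal library only, so these 3 met the minimum through the library where they were higher, and nothing is read from the counts of this list. THRB, a thyroid hormone receptor that directs opsin choice in cones and is also transcribed in many other tissues, had 11.2 FPKM (normal) and 18.1 FPKM (affected). RXRG, a retinoid receptor of cones, had 3.51 and 1.84 FPKM. GRK7, the kinase of cone opsins, was low in both, with 1.40 and 1.99 FPKM.

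Genes that rods and cones share were higher in the affected library. Of 20 such genes 18 were listed, of which 16 were at least 2-fold higher and none was lower, with a median log2 ratio of 1.73, and 3 of them reached 1 FPKM in the affected library alone. GUCA1B had the highest log2 ratio of the 18 at 6.69, with 0.0194 FPKM (normal) and 104.6 FPKM (affected). It is 1 of the 3 that reached 1 FPKM in the affected library alone, and it shares its listed span with GUCA1A. Nothing is read from its rank. RCVRN, the calcium sensor recoverin, UNC119, a carrier of transducin, and PDC, a transducin-binding protein, had log2 ratios of 1.78, 1.41 and 1.88. PRPH2, a structural protein of outer segment discs, had 2.48. CRX, the homeobox regulator of photoreceptor genes, differed less, with 76.5 FPKM in the normal cat against 120.1 FPKM in the affected cat.

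Of 12 rod genes 7 were listed, and all 7 were higher in the affected library by 2-fold or more, with a median log2 ratio of 3.12, and 1 of them, CNGA1, reached 1 FPKM in the affected library alone. Their FPKM summed to 125.2 in the normal against 755.6 in the affected library. GNAT1 and PDE6G, the rod counterparts of GNAT2 and PDE6H, are not among the gene names listed and were not analysed here. The 5 counterparts listed allow a comparison within each library. ARR3 stood at 0.0535 times the level of the rod arrestin SAG in the normal cat and 0.0708 times in the affected cat, a ratio 1.32 times higher in the latter. PDE6C stood at 0.122 and 0.165 times the level of the rod subunit PDE6B, a ratio 1.35 times higher, where PDE6B was listed at 14.8 and 49.9 FPKM. The remaining ratios were lower in the affected library. PDE6C stood at 0.771 times the rod catalytic subunit PDE6A in the normal cat and 0.137 times in the affected cat, where PDE6A was listed at 2.34 and 60.3 FPKM. CNGB3 stood at 0.144 times the rod channel subunit CNGB1, listed at 3.27 and 22.0 FPKM, in the normal cat and 0.0191 times in the affected cat. GNGT2 stood at 0.549 times the rod transducin gamma subunit GNGT1, listed at 55.2 and 159.1 FPKM, in the normal cat and 0.117 times in the affected cat. The cone genes thus did not hold a constant proportion to their rod counterparts.

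**Figure D3:**
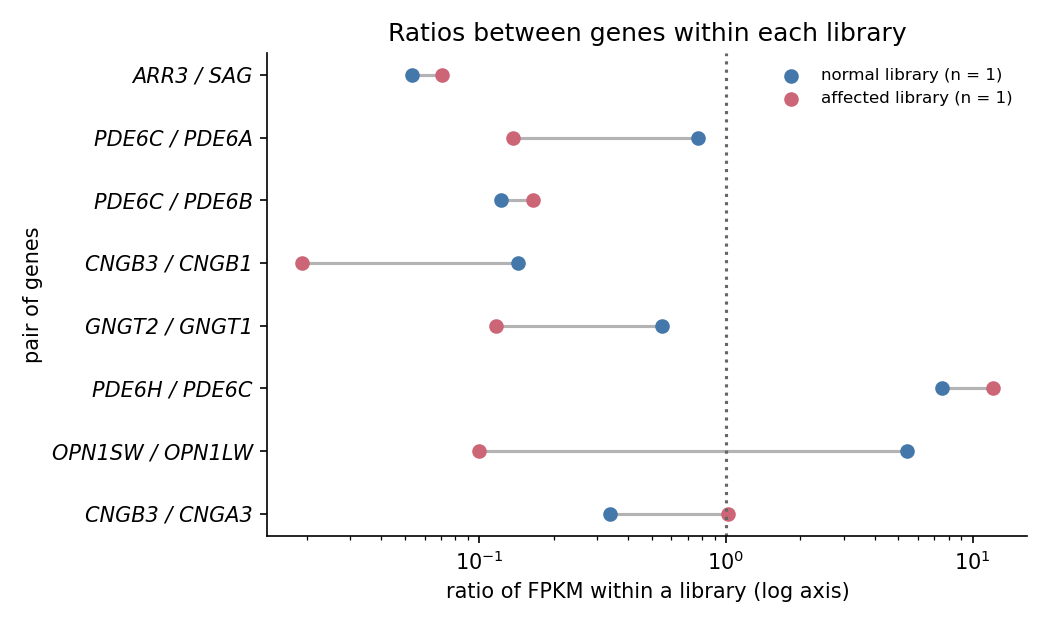
Ratio of the FPKM of 2 genes within the normal (blue) and within the affected library (red), 1 library each, on a log axis; the dotted line marks equal levels. ARR3 over SAG and PDE6C over PDE6B are close in both libraries, while OPN1SW over OPN1LW is 5.42 in the normal against 0.0998 in the affected library.

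Markers of the other cell types that the tissue could hold are given for comparison. Of 14 markers of inner retina and Müller glia 13 were listed and 8 reached 1 FPKM, of which 1, GAD1, was at least 2-fold higher and none was at least 2-fold lower with 1 FPKM added. By the plain fold VSX1, a homeobox gene of bipolar cells, was also past 2-fold, with a normal value 2.52 times the affected one (2.04 to 3.17). The median log2 ratio of the 8 was 0.41, and the FPKM of the 13 listed summed to 300.7 in the normal against 431.2 in the affected library. RLBP1, a retinaldehyde-binding protein of glia and pigment epithelium, had 184.7 and 260.8 FPKM, and POU4F1 and POU4F2, markers of retinal ganglion cells, were under 1 FPKM in both. RBPMS, a marker of ganglion cells that is also transcribed in muscle, had 86.2 and 135.9 FPKM. All 5 markers of the retinal pigment epithelium were listed, 4 lower and 1 higher in the affected library, with a median log2 ratio of −0.63. The higher one was RGR, with 20.7 FPKM (normal) and 25.4 FPKM (affected). RPE65, the isomerase of the visual cycle, was at least 2-fold lower with 1 FPKM added. Its log2 ratio was just −1.001, with 53.2 FPKM (normal) and 26.1 FPKM (affected). By the plain fold 2 of these markers were past 2-fold, RPE65 at 2.04 times and BEST1, a chloride channel, at 2.06 times higher in the normal library. The lens genes are reported in part, and no direction of the whole list is drawn from them. Of 6 lens genes 5 were listed, each of these at least 2-fold higher, and their FPKM summed to 4394 and 12638. No listed marker of these 3 lists was at 0 in either library. Their part in the differences of the cone genes was not tested.

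The labelled tissue was checked against 12 genes of trabecular meshwork, ciliary epithelium, smooth muscle and pigment cells, all of which were listed above 1 FPKM in both libraries. Among them COL9A1, a collagen of the ciliary epithelium and vitreous, had 403.5 FPKM in the normal cat against 1718 FPKM in the affected cat, and ACTA2, the actin of smooth muscle, had 600.0 and 699.4 FPKM. Of the other smooth muscle genes, MYH11 was also higher in the affected library, with 88.2 and 140.8 FPKM, while DES with 19.999 and 12.99 FPKM and CNN1 with 40.7 and 30.4 FPKM were lower. Of these 12 genes 4 were at least 2-fold higher and 3 at least 2-fold lower in the affected library. The 4 higher genes were COL9A1, OPTC, which encodes opticin of the ciliary epithelium and vitreous, with 351.0 and 1235 FPKM, and the trabecular meshwork genes MYOC with 149.7 and 301.5 FPKM and ANGPTL7 with 2.51 and 7.93 FPKM. The 3 lower genes were MGP, a matrix protein of the trabecular meshwork, with 454.9 and 52.9 FPKM, and the pigment cell genes TYR with 182.7 and 26.8 FPKM and PMEL with 493.0 and 134.4 FPKM. The third pigment cell gene, DCT, differed the other way, with 660.6 and 896.3 FPKM, so the 3 pigment cell genes did not all differ in the same direction. The composition of the dissected pieces thus was not shown to match, and its part in the differences of the cone genes was not tested.

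**Figure D4:**
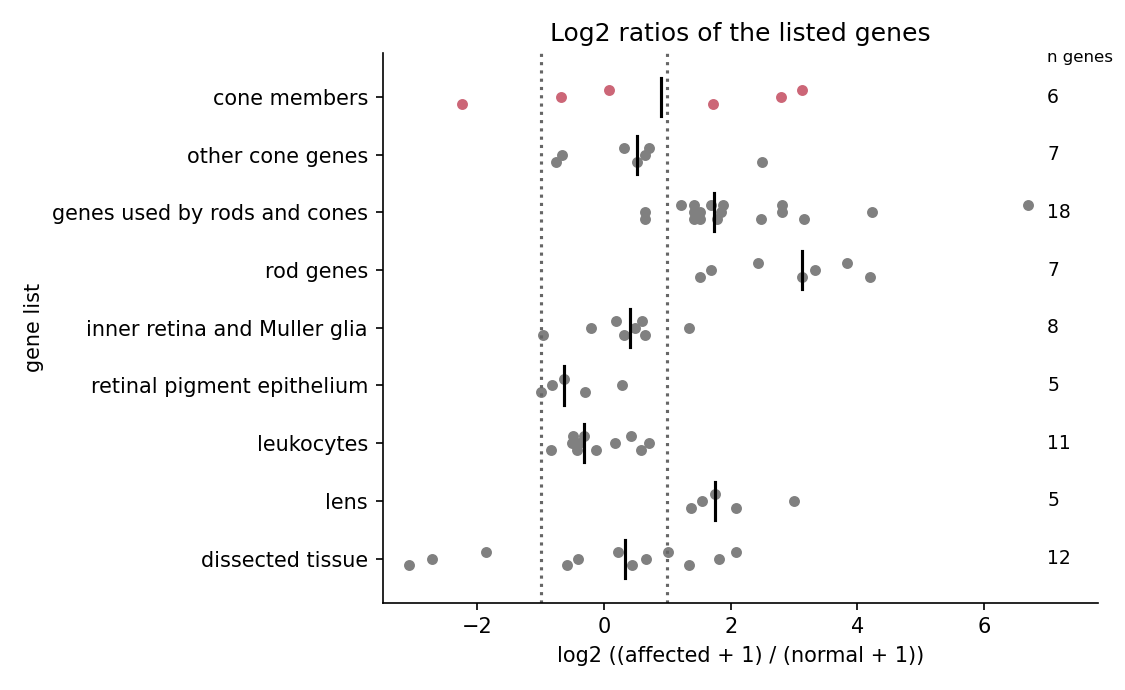
Log2 ratio (affected over normal, 1 FPKM added) of each listed gene that reached 1 FPKM in at least 1 library, by list, with the number of genes at the right; black bars are medians and dotted lines mark a 2-fold difference. The cone members (red) spread from −2.25 to 3.12, while all 7 rod genes lie above the upper 2-fold line. Of these rod genes, CNGA1 reached 1 FPKM in the affected library only.

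The genes whose pair of levels lay nearest to that of PDE6H, the member with the highest mean, were PRODH, TF and PAPPA2, out of 14518 gene symbols and over 2 libraries. Nearness was the Euclidean distance of log2(FPKM + 1), which was 0.10 for PRODH, 0.18 for TF and 0.25 for PAPPA2. PRODH had 14.5 FPKM (normal) and 95.9 FPKM (affected).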

How the data were processed

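Reads of 2 libraries of polyadenylated RNA, 1 per condition, were mapped by the authors with TopHat 2.0.9, guided by Ensembl predictions, against felCat5, and the deposited FPKM values were calculated by the authors with Cufflinks 2.1.1 and cummeRbund, 1 value per locus and library. The scaling between libraries is not given in the sources used here. A count model does not suit FPKM, and no p-value was calculated.

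Gene names were matched exactly, and of repeated names the row with the higher mean was kept. Listed start positions count from 0 and are given here from 1. Log2 ratios used a pseudocount of 1 FPKM, and loci were compared when at least 1 library reached 1 FPKM. The value of 1 fragment was recovered from 3655 (normal) and 3491 (affected) unnamed loci of 400 to 3000 bases, where 97.2% and 96.4% of values came out as whole fragments with a tolerance of 0.03 (6% if values were evenly spread). The steps correspond to a scale of about 71100000 and 67500000 fragments. The calls and this recovery were tested on simulated data.

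The 7 genes and all lists were chosen with earlier results of these data known. Named from each list were rod counterparts and up to 4 genes of the highest mean FPKM. OPN1LW, CNGA1, CNGA3, GUCA1C, SLC24A2, CRX, GUCA1B, GAD1, VSX1, POU4F1, POU4F2, MGP, TYR, PMEL, DES, CNN1, MYOC, ANGPTL7 and MYH11 were named after their values were seen. Values of some single genes are not reported here. Sequences were not used here. Python 3.11.15, numpy 2.4.6, pandas 2.3.3, scipy 1.17.1 and matplotlib 3.10.9 were used.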

Additional observations from a re-analysis of the deposited data

How the results depend on the processing

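The log2 ratios, counts and median of the cone members and the counts over all loci, but not the values of the other lists, were recomputed with a pseudocount of 0.1 FPKM, after rescaling each library to sum to 1000000, after rescaling to a median ratio of 1, with no minimum, with a minimum of 5 FPKM for the mean, without loci listed at 0 in exactly 1 library, at a 4-fold threshold, and, for the members, with rows of the same name summed. No log2 ratio of a member at least 2-fold apart changed sign. With a pseudocount of 0.1 the log2 ratios were 3.50 for ARR3, 2.13 for PDE6C and −2.74 for OPN1SW. The median of the members was 0.071 with no minimum, which adds CNGB3, and 1.72 where the mean had to reach 5 FPKM, which leaves 5 members, without GNAT2 and CNGB3. The minimum of 5 FPKM left 815 loci higher and 691 lower by 2-fold or more, and 280 and 298 lay past 4-fold, against 1358 and 1459. At 4-fold, 2 members were higher and 1 lower. By the plain fold, added after the values were seen, 3 members were higher and 1 lower, as with the pseudocount. Of 86 recomputed values 77 moved by no more than the greater distance from the plain log2 fold to an end of its counting interval (for the median, the greatest such distance of a member), or for counts by no more than 1.5 times. Part of these values could not move, so the 77 do not measure robustness. Each member has 1 row and none is at 0, so summing rows or leaving out loci at 0 left the member values fixed. A minimum sets which members are kept and does not alter their log2 ratios. No paired analysis was possible because a single library stands for each condition. Depth limits GNAT2 and CNGB3, whose counting intervals include equal levels.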

Other observations

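The loci next to the cone genes were read from the same table, within 10000 bases on either side, and this was chosen after the values had been seen. PDE6C lies 9821 bases from RBP4, which encodes the plasma retinol-binding protein and was listed at 683.6 FPKM (normal) and 5024 FPKM (affected). Between them stand 4 unnamed loci, all under 1.07 FPKM, of which 3 were under 1 FPKM in both libraries and the other reached it in the affected library only, so no fold is given for them. On the other side of PDE6C, FRA10AC1 had 7.91 FPKM in the normal cat against 9.04 FPKM in the affected cat. OPN1SW lies 451 bases from CALU, which encodes a calcium-binding protein of the secretory pathway and had 128.2 and 120.7 FPKM, so the difference at OPN1SW was not shared by this neighbour.

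GNGT2 lies 141 bases from ABI3, which encodes an actin-regulating adaptor found in leukocytes and was listed at 5.47 FPKM (normal) and 2.69 FPKM (affected). Farther away, 2 unnamed loci had 0.0308 and 0.455 FPKM and 0.200 and 0.316 FPKM, and the higher of 2 rows of B4GALNT2 had 0.425 and 0.670 FPKM, while the other row of B4GALNT2 was listed at 0.0196 and 0 FPKM. All of these were under 1 FPKM in both libraries, and no direction is drawn from them. Beside ARR3, PDZD11 was lower in the affected library, unlike ARR3 itself, with 19.4 and 11.5 FPKM. The other neighbour of ARR3, ENSFCAG00000008634, had 1.86 and 0.229 FPKM. It reached 1 FPKM in the normal library only, so no direction is drawn from it. GNAT2 lies between ENSFCAG00000016509, 79 bases away with 0.727 and 1.07 FPKM, and AMPD2, 64 bases away with 13.7 and 19.0 FPKM. GNAI3, 3180 bases from GNAT2, had 36.1 FPKM in both libraries. The unnamed locus beside CNGB3 had 0.554 and 0.513 FPKM. The causes of these values were not tested.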
